A study of Drosophila melanogaster with 9 samples.

Results

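The genes described here are those of the 2 large families of conjugation enzymes in *Drosophila*: the glutathione S-transferases (Gst) and the UDP-glycosyltransferases (Ugt). Members were chosen by symbol alone, as protein-coding genes whose symbol is Gst followed by a capital letter or Ugt followed by a number. No measured value was part of this rule, but earlier results of these data were known when it was set. This gave 68 genes, 35 Gst and 33 Ugt, of the 13895 protein-coding genes and 17714 genes of all kinds that could be paired with the table. The annotation holds 70 such genes, and the remaining members, Ugt37A1 and Ugt37C1, are not analysed here.

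Conjugation is the step of detoxification in which a reactive or fat-soluble compound is joined to a water-soluble group. Glutathione S-transferases join it to the tripeptide glutathione, and UDP-glycosyltransferases, which sit in the membrane of the endoplasmic reticulum, join it to a sugar carried by UDP. Transporters of the ATP-binding cassette (ABC) family then pump the conjugates out of the cell. In insects the midgut, the Malpighian tubules and the fat body are the main tissues of this work, and the delta and epsilon classes of Gst, which are particular to insects and their relatives, are best known for the clearance of insecticides and plant toxins. Many of these genes lie side by side in tandem arrays that arose by gene duplication, and many respond to the transcription factor encoded by cap-n-collar (cnc), the fly relative of mammalian Nrf2.

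Whole third-instar larvae gave 9 RNA libraries, 3 for each group. The groups were metafemales (XXX), in which 3 X chromosomes accompany a diploid set of autosomes, and Canton S males (CM, XY) and females (CF, XX) of the normal diploid type. To obtain metafemales, Canton S males were crossed with females of the strain C(1)DX,ywf/winscy, whose X chromosomes are joined. The larvae were picked by their sex and the colour of their mouthparts. All stocks were kept at 25 °C. The metafemales therefore differ from both controls in the number of X chromosomes and also in the source of their X chromosomes, including the y, w and f alleles of the attached X. They differ in the source of their autosomes as well, since their mothers were not Canton S. These differences cannot be told apart. The labels do not say whether replicates are separate pools of larvae, so p-values measure only the spread between these libraries.

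Levels are given in CPM, the counts of a gene scaled to one fixed library total, with all counts of the table in that total. Library totals were 139954374 to 168844124 counts in metafemales, 130919406 to 177910781 in males and 138223737 to 184268612 in females, so that 3 counts, the smallest level taken as detected, correspond to 0.0163 to 0.0229 CPM. By that measure 59 of the 68 members were detected in all 9 libraries. Transcripts assembled outside the annotation took 13.4% of the counts of metafemale replicate 1 and 24.6% to 32.6% of the other libraries, so this library stands apart, and counts of calls are also given without it. The sex labels were checked with roX1, roX2 and msl-2, the RNAs and the limiting protein of the male dosage compensation complex, whose summed level was 7.56 to 18.5 CPM in metafemales, 526 to 647 CPM in males and 12.4 to 25.7 CPM in females. The glue protein genes of the salivary gland, which are markers of the third instar, were detected in every library. Their summed level was 910 to 1905 CPM in metafemales, 7104 to 9717 CPM in males and 6274 to 7803 CPM in females. Whether the groups match in stage within the instar was not tested.

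The members fall into 6 classes of Gst and 13 numbered families of Ugt. The delta class had 11 genes, the epsilon class 14, theta 4, omega 3, zeta 2 and sigma 1. Among the Ugt, families 35 and 37 had 6 members in the table each, 36 and 303 had 4 each, 49 and 302 had 3 each, and 7 families had a single gene. Only GstT3 and GstT4 lie on the X chromosome, and all other members are autosomal, with 30 of them on 3R, 21 on 2R, 10 on 2L and 5 on 3L. Tandem arrays hold much of the set: all 11 GstD genes lie at 3R:12364776-12385624 (BDGP6.54), 10 GstE genes at 2R:18396638-18409835, 9 Ugt genes of families 35, 302, 303 and 304 at 3R:11151026-11177910, and Ugt37C2, Ugt37E1 and Ugt37D1 at 2L:16794211-16801584. Neighbours in such arrays can be close copies of each other, so that reads could be divided between them, and values of single members are less certain than sums over an array.

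A few genes supplied most of the transcripts. GstD1, the delta enzyme best known for its activity on DDT and as a reporter of oxidative stress, made up 33.2% of the summed Gst CPM averaged over 9 libraries, GstT4 22.3% and GstS1 11.7%. Per kilobase of transcript, GstD1 stood at 575.7 CPM per kb, GstT4 at 262 CPM per kb, GstS1 at 118 CPM per kb and GstE12 at 105.5 CPM per kb. Levels of Ugt genes were lower and more even. Ugt50B3 made up 23.0% of the Ugt sum, Ugt301D1 17.0% and Ugt35A1 12.1%, and per kilobase the order was Ugt301D1 (30.01 CPM per kb), Ugt50B3 (29.0 CPM per kb) and Ugt35A1 (22.9 CPM per kb).

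**Figure D1:**
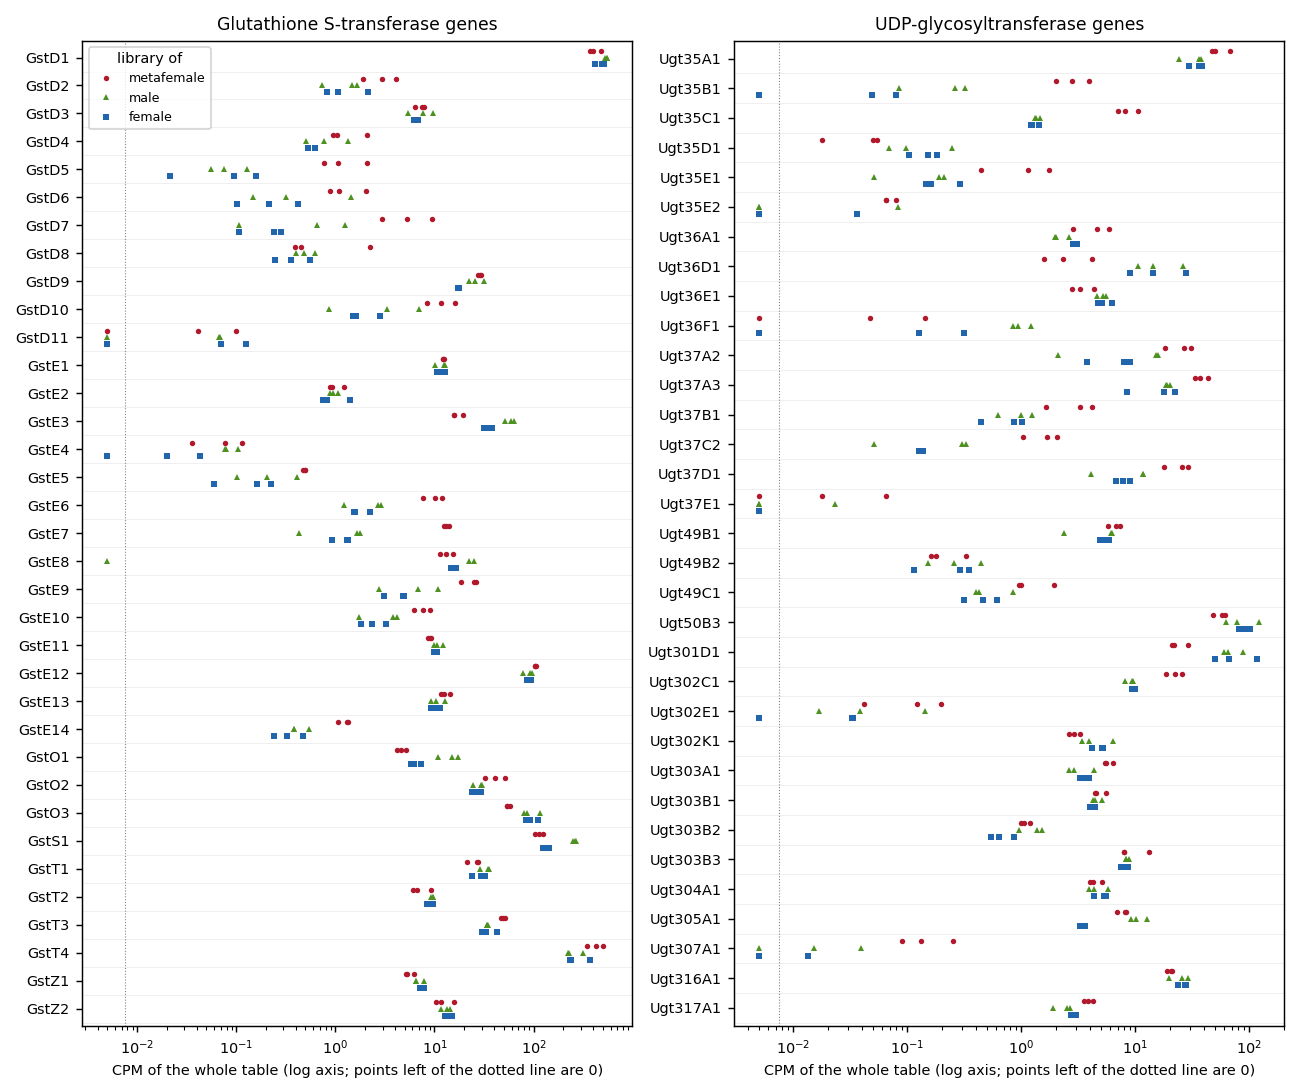
Level of each of the 35 Gst and 33 Ugt genes in each of the 9 libraries, in CPM of the whole table on a log axis; circles are metafemale, triangles male and squares female libraries, and points left of the dotted line are libraries at 0. The levels span from 0 to 555 CPM, and the metafemale libraries lie apart from the male and female libraries at genes such as GstE7, GstD7, Ugt35C1 and Ugt37C2.

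The first question was how the conjugation genes of metafemales compare with those of normal females. In metafemales 23 of the 65 members tested rose by more than 2-fold, 11 Gst and 12 Ugt, and 4 fell (GstE3, Ugt36D1, Ugt301D1 and Ugt35D1). The members that rose are 35.4% of those tested, beside 9.75% of all 11995 genes tested, and the members that fell are 6.15%, beside 4.83% of all genes tested. The largest rises were those of Ugt35B1 (64.1-fold from pooled counts), Ugt307A1, GstD7, GstD5, Ugt37C2 and GstE7. Most rises lay in the delta and epsilon classes and in families Ugt35 and Ugt37, whereas no member of the omega, sigma, theta or zeta classes passed the thresholds. Calls required an edgeR adjusted p below 0.05 (quasi-likelihood test, Benjamini-Hochberg) together with a log2 fold change beyond 1 in either direction. By the adjusted p alone, 30 members were higher and 10 lower, beside 20.6% and 18.0% of all genes tested. The libraries of the groups did not overlap in 34 members with higher and 13 with lower metafemale levels, beside 25.0% and 25.7% of all genes tested.

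The median log2 fold change was 0.60 over the 65 members and -0.03 over all genes tested. GstE4, Ugt37E1 and Ugt302E1 were too low to be tested, with at most 0.114, 0.0643 and 0.196 CPM in any library. Of the 27 called members, 4 (Ugt307A1, Ugt35B1, GstD5 and Ugt35D1) reached the level needed for testing in fewer than 3 libraries of the group where they were lower, so they entered the test through the group where they were high. Without metafemale replicate 1 the counts were 21 higher and 2 lower. The count of 4 lower members also dropped to 2 without metafemale replicate 3 and without female replicate 1. Of the 27 calls, 19 held in every setting that tested the gene. The calls of GstD4, GstD6, GstE3, GstE5, Ugt35D1, Ugt35E1, Ugt37A2 and Ugt37A3 were lost in 1 or more settings. In a fit of all 9 libraries together, GstD4, GstD6, GstE5 and Ugt37A2 had edgeR adjusted p of 0.0829 to 0.0943.

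**Figure D2:**
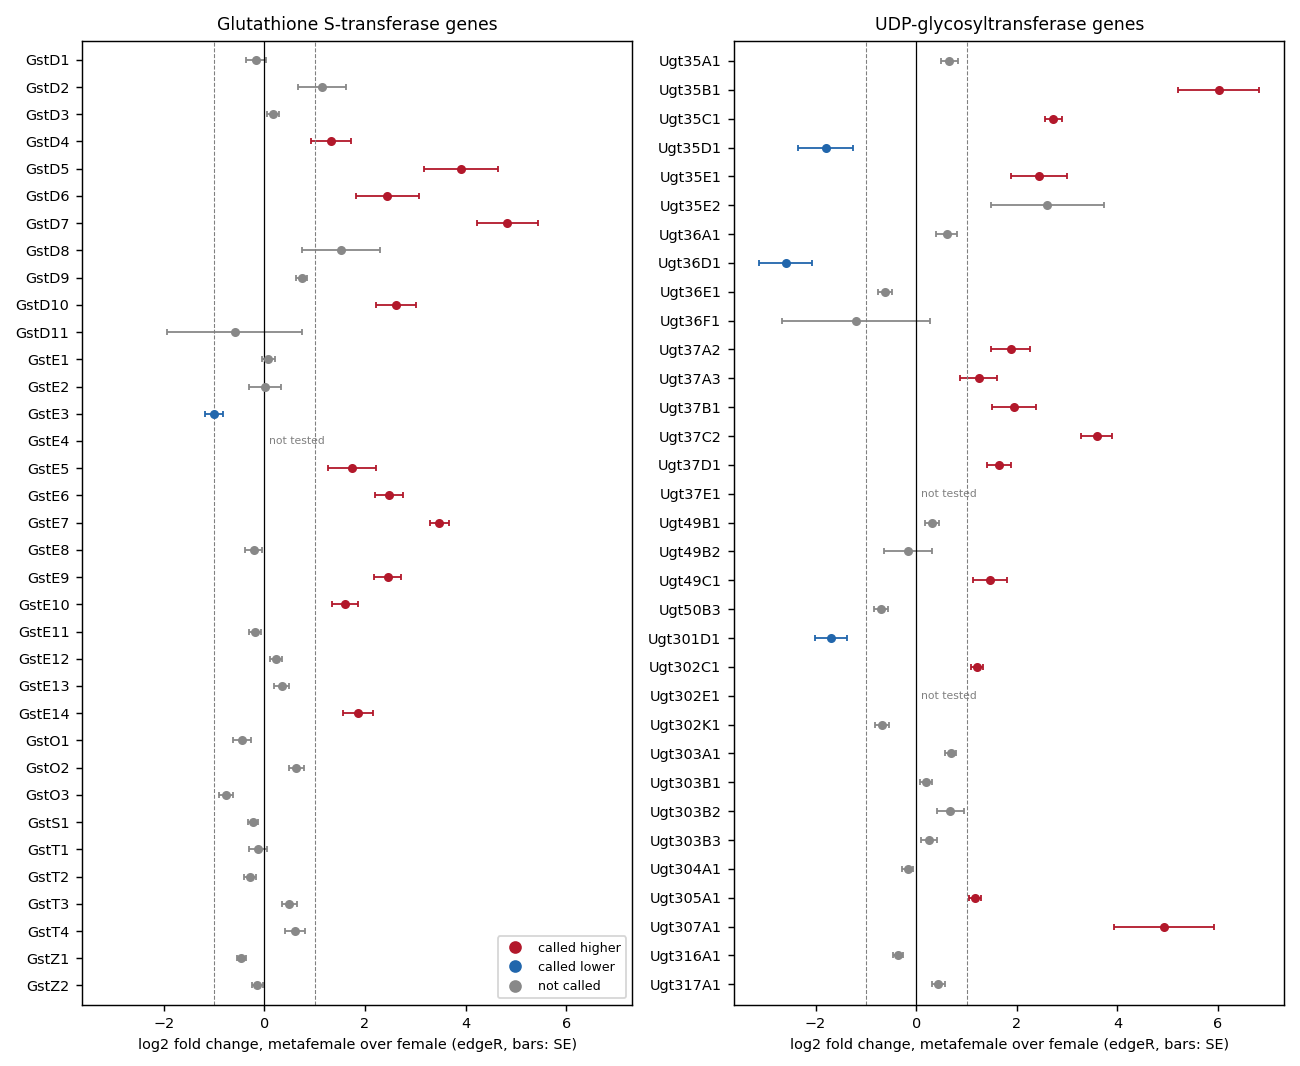
Log2 fold change of metafemale over female for each Gst and Ugt gene (points, with bars of 1 SE from edgeR) over 3 libraries a group; red marks the 23 genes called higher, blue the 4 called lower, grey those not called, and the dashed lines stand at a log2 fold change of 1 in each direction. Most rises lie in GstD, GstE, Ugt35 and Ugt37, and the omega, sigma, theta and zeta genes lie between the dashed lines.

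The larvae were whole, so a change may reflect more RNA per cell or more cells of a type, and these cannot be told apart. Markers of some other tissues moved with the group. Over all genes tested, 9.75% were called higher and 4.83% lower, and by the adjusted p alone 20.6% were higher and 18.0% lower. The summed level of 12 midgut digestion genes was 11870 to 14580 CPM in metafemales and 7261 to 8920 CPM in females, with 3 of 12 called higher, 9 past the adjusted p alone and a median log2 fold change of 0.67. The summed level of 5 muscle genes was 9321 to 17860 CPM in metafemales and 3639 to 6180 CPM in females, with 4 of 5 called higher and all 5 past the adjusted p alone. All 7 salivary glue genes were called lower, at 910 to 1905 CPM in metafemales and 6274 to 7803 CPM in females. The summed level of 8 Malpighian tubule genes was 402.6 to 522.8 CPM in metafemales and 333.7 to 389.1 CPM in females, with none of 8 called and 3 past the adjusted p alone. Fat body genes summed to 42020 to 60560 CPM in metafemales and 48440 to 63880 CPM in females, with 1 of 8 called higher and 1 lower, and 1 higher and 3 lower by the adjusted p alone. The summed level of 3 blood cell genes was 311.9 to 535 CPM in metafemales and 224.4 to 280.7 CPM in females, with none called and 1 (Hml) past the adjusted p alone. None of 5 nervous system genes was called or past the adjusted p. No marker of these lists was at 0 in either group, and their part in the changes of the conjugation genes was not tested.

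The summed level of each family differed far less than the levels of the genes that rose. The 35 Gst genes summed to 1437 ± 19.2 CPM in metafemales and 1321 ± 41.7 CPM in females (SD, n = 3 each), a ratio of 1.09 that became 1.002 when libraries were scaled by their annotated transcripts alone. The 33 Ugt genes summed to 340.7 ± 41.3 CPM in metafemales and 336.1 ± 67.5 CPM in females. By level, of the 40 tested members with a mean under 10 CPM over 9 libraries, 18 rose and 1 fell, while of the 25 members at or above 10 CPM, 5 rose and 3 fell. Over all genes tested the calls were 10.4% higher and 5.27% lower under 10 CPM, and 9.03% higher and 4.33% lower at or above it.

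**Figure D3:**
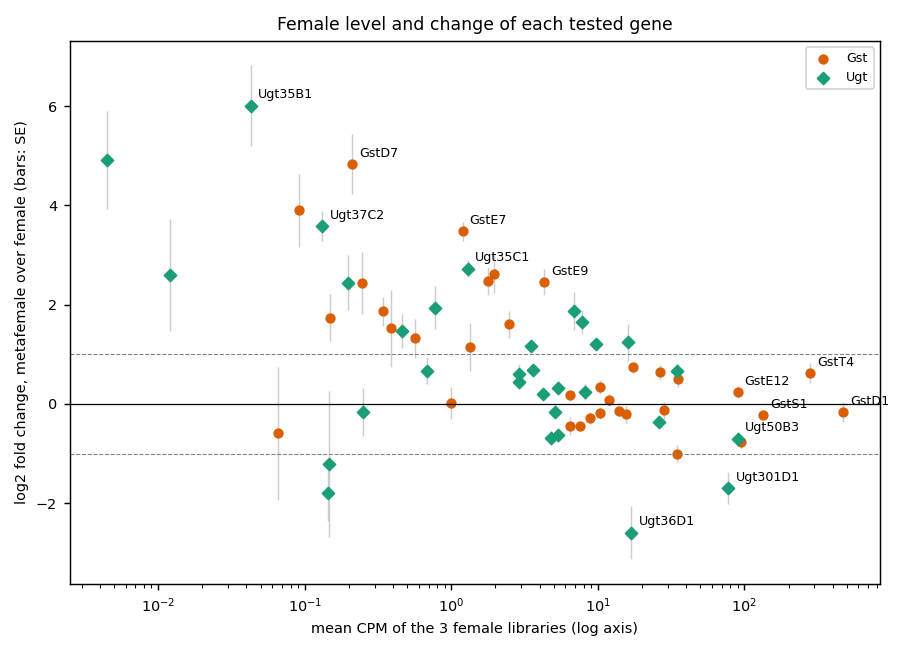
Log2 fold change of metafemale over female (bars: 1 SE) against the mean level of the 3 female libraries in CPM on a log axis, for the tested Gst (circles) and Ugt (diamonds) genes; the female level also enters the fold change. Log2 fold changes above 2 occur only at female levels under 10 CPM, and the abundant GstD1, GstT4, GstS1 and GstE12 lie between the dashed lines at 1 in each direction.

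Of the 11 delta genes, 5 rose in metafemales (GstD7, GstD5, GstD10, GstD6 and GstD4) and none fell. GstD7 had 5.27, 9.39 and 2.95 CPM in metafemales, against 0.282, 0.107 and 0.239 CPM in females (log2 fold change 4.83, SE 0.60, edgeR adjusted p = 0.00198). GstD5 had 1.06, 2.08 and 0.77 CPM in metafemales, against 0.0217, 0.16 and 0.094 CPM in females (log2 fold change 3.903, SE 0.74, edgeR adjusted p = 0.00754). The 3 metafemale libraries lay above all female libraries for both genes, and metafemale replicate 2 was the highest. Without it the log2 fold change was 4.203 for GstD7 and 3.29 for GstD5, and without female replicate 2 it was 4.62 for GstD5. GstD10, at one end of the array, had 11.6, 16.1 and 8.35 CPM in metafemales, against 2.8, 1.61 and 1.5 CPM in females (log2 fold change 2.62, SE 0.39, edgeR adjusted p = 0.00339). GstD6 had 1.1, 2.02 and 0.876 CPM in metafemales, against 0.418, 0.213 and 0.101 CPM in females (log2 fold change 2.44, SE 0.63, edgeR adjusted p = 0.0224), but without metafemale replicate 2 the adjusted p was 0.0702 and without female replicate 2 it was 0.0764. Without female replicate 1 the log2 fold change of GstD6 was 3.18. GstD4 had 1.05, 2.08 and 0.954 CPM in metafemales, against 0.63, 0.527 and 0.528 CPM in females (log2 fold change 1.32, SE 0.40, edgeR adjusted p = 0.0375), and its call was lost without metafemale replicate 2, where the log2 fold change was 0.78, and without any single female library, with adjusted p of 0.0642 to 0.107.

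The most abundant delta gene was not called. GstD1 had 369.7, 472 and 398 CPM in metafemales, against 509, 485 and 420.1 CPM in females (log2 fold change -0.17, SE 0.20, edgeR adjusted p = 0.537), and the groups overlapped. GstD9, which lies between GstD10 and GstD1 in the array, had 28.9, 29.5 and 27.7 CPM in metafemales, against 17.4, 17.1 and 17.5 CPM in females, a tight separation of the groups whose log2 fold change of 0.74 (SE 0.11, edgeR adjusted p = 0.00339) stayed under the fold threshold. GstD2 and GstD8, with log2 fold changes of 1.14 and 1.53, did not pass the test (edgeR adjusted p = 0.101 and 0.162), and for GstD8 only metafemale replicate 2, at 2.26 CPM, stood above the females, which had 0.244 to 0.557 CPM. GstD3 (log2 fold change 0.17) and the barely detected GstD11 also did not pass. The sum of the 10 delta genes without GstD1 was 61.8 ± 12.4 CPM in metafemales and 28.7 ± 1.42 CPM in females (SD, n = 3 each), a ratio of 2.15, while the sum with GstD1 was 475 ± 63.2 CPM in metafemales and 500.1 ± 46.9 CPM in females.

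In the epsilon class 6 of 13 tested genes rose and 1 fell. GstE7 had 13.98, 13.1 and 12.5 CPM in metafemales, against 1.34, 0.92 and 1.32 CPM in females (log2 fold change 3.48, SE 0.19, edgeR adjusted p = 0.000396), an 11.1-fold difference with little spread within either group. GstE6 had 10.2, 11.95 and 7.62 CPM in metafemales, against 2.25, 1.58 and 1.54 CPM in females (log2 fold change 2.48, SE 0.28, edgeR adjusted p = 0.00143). GstE9 had 25.1, 26.2 and 18.5 CPM in metafemales, against 4.88, 4.86 and 3.08 CPM in females (log2 fold change 2.45, SE 0.26, edgeR adjusted p = 0.00127). For these 3 genes of the array the lowest metafemale library exceeded the highest female library by more than 3-fold. GstE10, at the other end of the array, had 8.93, 7.58 and 6.2 CPM in metafemales, against 3.23, 2.35 and 1.82 CPM in females (log2 fold change 1.605, SE 0.27, edgeR adjusted p = 0.00487); it overlaps GstE1 by 127 bases on the opposite strand, and the strand setting of the counting is not given in the sources used here. GstE5 had 0.493, 0.5 and 0.474 CPM in metafemales, against 0.163, 0.05999 and 0.224 CPM in females (log2 fold change 1.74, SE 0.48, edgeR adjusted p = 0.0281), and the adjusted p rose to between 0.0545 and 0.079 when any 1 metafemale library or female replicate 1 was left out.

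GstE3 moved the other way within the same array. It had 15.8, 19.3 and 15.9 CPM in metafemales, against 37.7, 31.4 and 34.5 CPM in females (log2 fold change -1.001, SE 0.17, edgeR adjusted p = 0.00576), so all metafemale libraries were lower. Its fold change lay at the threshold, with members just outside it on this side at -0.76 (GstO3) and -0.70 (Ugt50B3), and the call was lost without metafemale replicate 1, without metafemale replicate 3 and without female replicate 1, where the log2 fold change was -0.88, -0.97 and -0.86. GstE1 and GstE2, before it in the array, had log2 fold changes of 0.08 and 0.01, and GstE8 one of -0.21. The abundant GstE12, which lies outside the array, had 104, 104 and 105 CPM in metafemales, against 88.6, 94.7 and 85.97 CPM in females, and its log2 fold change of 0.24 was not past the test (edgeR adjusted p = 0.151). GstE11 and GstE13, also outside the array, had log2 fold changes of -0.18 (SE 0.12, edgeR adjusted p = 0.264) and 0.34 (SE 0.14, edgeR adjusted p = 0.0988). Without GstE12 the epsilon genes summed to 121 ± 12.4 CPM in metafemales and 93.9 ± 5.15 CPM in females (SD, n = 3 each). With GstE12 they summed to 225.6 ± 11.97 CPM in metafemales and 183.7 ± 3.589 CPM in females.

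GstE14, named noppera-bo, acts in the prothoracic gland, where it is needed for the supply of sterol to the synthesis of the moulting hormone ecdysone. It had 1.33, 1.3 and 1.07 CPM in metafemales, against 0.239, 0.467 and 0.326 CPM in females (log2 fold change 1.87, SE 0.29, edgeR adjusted p = 0.00395), with every metafemale library above every female library. The summed level of 6 prothoracic gland genes was lower, at 152.7 to 231.7 CPM in metafemales and 266 to 313.6 CPM in females, and of the 5 tested 1 was called lower (sro), 3 were lower by the adjusted p alone and none was higher. Their part in the value of GstE14 was not tested.

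**Figure D4:**
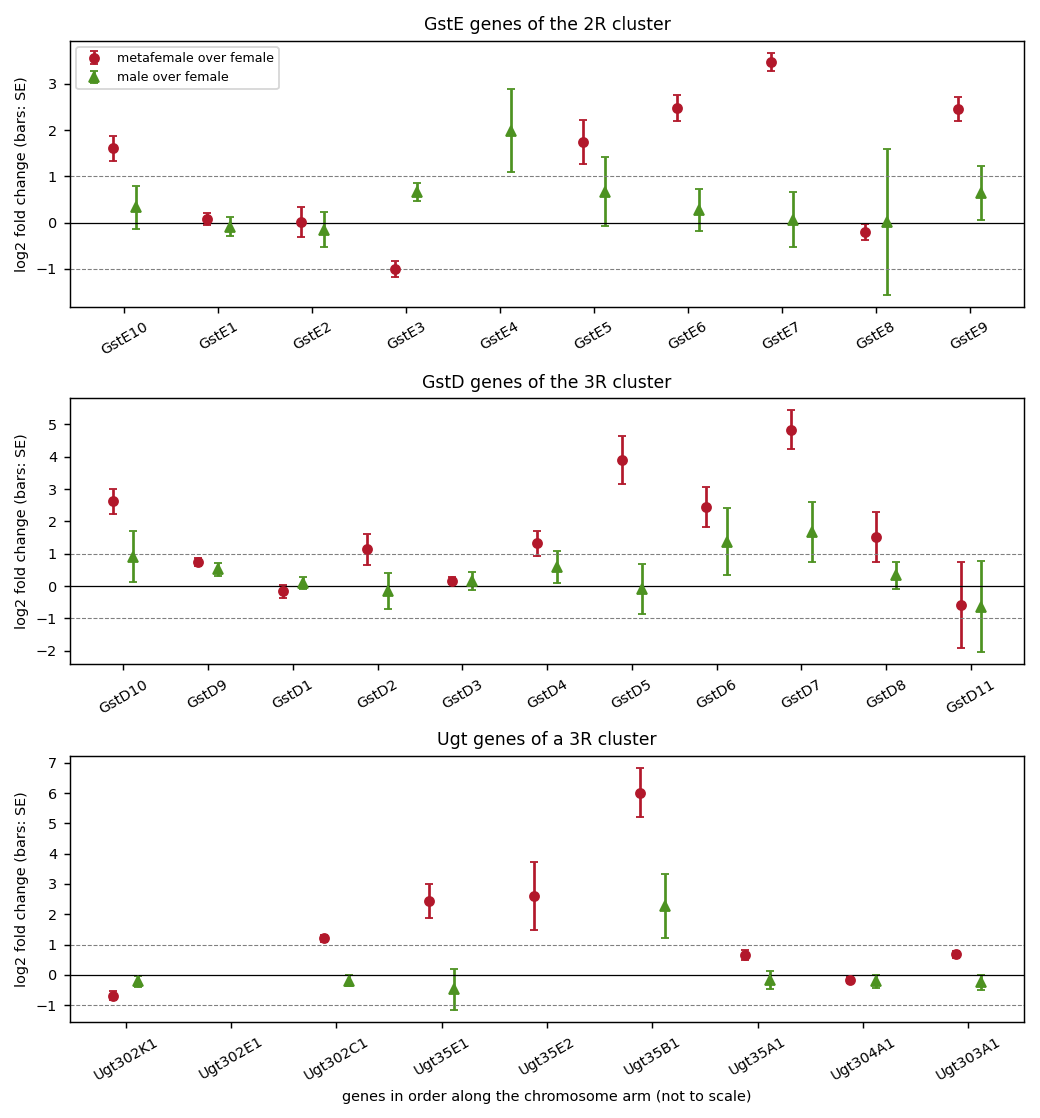
Log2 fold changes (points, with bars of 1 SE from edgeR) of metafemale over female (red circles) and male over female (green triangles) for the genes of 3 tandem arrays in their order along the chromosome arm, not to scale; a missing point was not tested. Each array holds genes that rose in metafemales (GstE7, GstD7, Ugt35B1) and genes near 0 (GstE8, GstD1, Ugt304A1), and GstE3 lies at -1.001.

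No gene of the remaining Gst classes was called in metafemales. The X-linked theta genes carry 3 gene copies in metafemales. GstT4 had 422, 347 and 498 CPM in metafemales, against 232, 239.9 and 372 CPM in females (log2 fold change 0.61, SE 0.20, edgeR adjusted p = 0.0489), with overlapping groups, since female replicate 3 exceeded metafemale replicate 2. GstT3 had 49.3, 51.1 and 46.9 CPM in metafemales, against 30.4, 42.4 and 33.2 CPM in females (log2 fold change 0.498, SE 0.15, edgeR adjusted p = 0.0376), with all metafemale libraries higher. Both values lie near the median of X-linked genes, which was 0.43, against -0.12 for autosomal genes, and 42.9% of 1924 tested X-linked genes were higher by the adjusted p alone. The autosomal GstT1 and GstT2 had log2 fold changes of -0.13 and -0.28.

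GstS1, the sigma enzyme, is known from adult flies for its abundance in muscle and for the conjugation of products of lipid peroxidation. It had 124, 112 and 103 CPM in metafemales, against 130.3, 125 and 144 CPM in females (log2 fold change -0.22, SE 0.10, edgeR adjusted p = 0.132), and all metafemale libraries lay below all female libraries without passing the test. Omega enzymes reduce dehydroascorbate and mixed disulfides. GstO3 had 53.8, 57.4 and 54.1 CPM in metafemales, against 82.9, 112 and 90.9 CPM in females (log2 fold change -0.76, SE 0.15, edgeR adjusted p = 0.00797), lower in every library but within the fold threshold. GstO2 had 50.9, 40.3 and 32.2 CPM in metafemales, against 23.9, 29.7 and 26.3 CPM in females (log2 fold change 0.63, SE 0.15, edgeR adjusted p = 0.0155), higher in every library and also within it. GstO1 had 4.18, 5.19 and 4.54 CPM in metafemales, against 6.16, 7.29 and 5.85 CPM in females (log2 fold change -0.44, SE 0.18, edgeR adjusted p = 0.0996). Zeta enzymes are known from mammals for a step in the breakdown of tyrosine. GstZ1 had 6.17, 5.23 and 5.12 CPM in metafemales, against 7.13, 7.83 and 7.86 CPM in females (log2 fold change -0.45, SE 0.10, edgeR adjusted p = 0.0118), lower in every metafemale library, and GstZ2 had 15.8, 10.4 and 11.6 CPM in metafemales, against 12.7, 13.95 and 15.1 CPM in females (log2 fold change -0.14, SE 0.11, edgeR adjusted p = 0.344), with overlapping groups.

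Family Ugt35 held the largest rise of the whole set. Ugt35B1, known from adult flies for expression in the antenna, had 3.94, 2.8 and 1.996 CPM in metafemales, against 0.0488, 0.07999 and 0 CPM in females (log2 fold change 6.01, SE 0.81, edgeR adjusted p = 0.00247). From pooled counts, 1359 in metafemales against 21 in females, the ratio was 64.1, with an exact 95% interval of 41.8 to 103.9 that covers counting error only. Female replicate 2 held the highest female level, and without it the log2 fold change was 6.697 (edgeR adjusted p = 0.00884). A list of 5 antennal genes summed to 0.679 to 0.924 CPM in metafemales and 0.376 to 0.657 CPM in females, and none of the 3 tested was called. Of these, Orco, the coreceptor of odorant receptors, had 0.557, 0.316 and 0.64 CPM in metafemales, against 0.277, 0.107 and 0.101 CPM in females (log2 fold change 1.59, SE 0.53, edgeR adjusted p = 0.0527), and the odorant-binding genes Obp83a and Obp83b were at 0 in all metafemale libraries. The part of these cells in the value of Ugt35B1 was not tested. Ugt35C1 had 10.5, 8.14 and 7.08 CPM in metafemales, against 1.43, 1.23 and 1.22 CPM in females (log2 fold change 2.73, SE 0.17, edgeR adjusted p = 0.000449), a 6.62-fold difference with no overlap. Ugt35E1 had 1.74, 1.15 and 0.438 CPM in metafemales, against 0.288, 0.16 and 0.145 CPM in females (log2 fold change 2.44, SE 0.55, edgeR adjusted p = 0.0146), and without female replicate 2 the adjusted p was 0.0558. Ugt35E2, its near neighbour, did not pass the test, with 0.0786, 0.0655 and 0.0652 CPM in metafemales, against 0, 0 and 0.0362 CPM in females (log2 fold change 2.61, SE 1.13, edgeR adjusted p = 0.111).

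Other members of the family differed in direction. Ugt35A1, which made up most of the family's counts, had 68.1, 50.4 and 46.9 CPM in metafemales, against 36.4, 38.3 and 29.5 CPM in females, higher in every metafemale library, with a log2 fold change of 0.66 (SE 0.16, edgeR adjusted p = 0.0183) under the threshold. Ugt35D1 was scarce and had 0.05002, 0.0536 and 0.0178 CPM in metafemales, against 0.103, 0.18 and 0.152 CPM in females (log2 fold change -1.801, SE 0.55, edgeR adjusted p = 0.0396), and its call was lost when any single library was left out, with adjusted p of 0.0573 to 0.129. The 5 genes other than Ugt35A1 summed to 12.7 ± 3.39 CPM in metafemales and 1.69 ± 0.16 CPM in females (SD, n = 3 each), a ratio of 7.53. With Ugt35A1 the family summed to 67.8 ± 14.7 CPM in metafemales and 36.45 ± 4.725 CPM in females, a ratio of 1.86. In the same array Ugt302C1 had 25.6, 22.1 and 18.4 CPM in metafemales, against 9.24, 9.68 and 10.01 CPM in females (log2 fold change 1.204, SE 0.11, edgeR adjusted p = 0.000935), while Ugt302K1 had 2.9, 2.63 and 3.28 CPM in metafemales, against 4.14, 5.1 and 5.14 CPM in females (log2 fold change -0.68, edgeR adjusted p = 0.0102), which is within the fold threshold. Ugt303A1, at the end of the array, had a log2 fold change of 0.68 (SE 0.12, edgeR adjusted p = 0.00548), and Ugt304A1 one of -0.17.

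All 5 tested genes of family Ugt37 rose, and they lie at separate places on 2L and 3R. Ugt37C2 had 2.04, 1.68 and 1.04 CPM in metafemales, against 0.13, 0.127 and 0.138 CPM in females (log2 fold change 3.59, SE 0.30, edgeR adjusted p = 0.000704). Ugt37D1, which lies in the same array, had 25.9, 29.1 and 17.8 CPM in metafemales, against 8.92, 7.71 and 6.8 CPM in females (log2 fold change 1.65, SE 0.24, edgeR adjusted p = 0.0031). Between them lies Ugt37E1, the family member that was not tested, with 12 counts over the metafemale libraries and 0 over the female libraries. Ugt37B1 had 4.14, 3.25 and 1.64 CPM in metafemales, against 0.868, 1.01 and 0.441 CPM in females (log2 fold change 1.94, SE 0.43, edgeR adjusted p = 0.0138). Ugt37A2 had 26.5, 30.8 and 18.4 CPM in metafemales, against 7.99, 8.95 and 3.73 CPM in females (log2 fold change 1.88, SE 0.39, edgeR adjusted p = 0.0101). In these 4 called genes every metafemale library was above every female library. Ugt37A3 had 37.1, 43.2 and 33.3 CPM in metafemales, against 17.7, 22.3 and 8.36 CPM in females (log2 fold change 1.24, SE 0.37, edgeR adjusted p = 0.0369), and its call was lost when any 1 metafemale library, female replicate 1 or female replicate 3 was left out, with adjusted p of 0.0644 to 0.11 apart from the last, where the log2 fold change was 0.92. The 6 genes of the family summed to 92.0 ± 18.3 CPM in metafemales and 31.7 ± 10.8 CPM in females (SD, n = 3 each), a ratio of 2.899.

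Among the smaller Ugt families 3 more genes rose. Ugt307A1 was detected almost only in metafemales, with 0.25, 0.0893 and 0.13 CPM in metafemales, against 0, 0.0133 and 0 CPM in females (log2 fold change 4.92, SE 0.99, edgeR adjusted p = 0.00933). The pooled counts were 72 in metafemales and 2 in females, a ratio of 35.7 with an exact 95% interval of 9.52 to 300.2, and the fitted value depends on how the libraries at 0 are treated. Both female counts came from replicate 2, and without that library, with both remaining female libraries at 0, the fitted log2 fold change was 7.61. Ugt49C1 had 1.94, 0.994 and 0.954 CPM in metafemales, against 0.315, 0.613 and 0.463 CPM in females (log2 fold change 1.47, SE 0.34, edgeR adjusted p = 0.015). Ugt305A1, one of the genes on 3L, had 8.24, 6.91 and 8.07 CPM in metafemales, against 3.58, 3.26 and 3.6 CPM in females (log2 fold change 1.16, SE 0.12, edgeR adjusted p = 0.00111). In all 3 the groups did not overlap.

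The genes that fell include 1 of the most abundant Ugt. Ugt301D1 had 29.2, 21.8 and 20.8 CPM in metafemales, against 65.8, 117 and 49.8 CPM in females (log2 fold change -1.696, SE 0.32, edgeR adjusted p = 0.00716), so that metafemale libraries lay close together and below widely spread female libraries. Ugt36D1 had 1.58, 2.33 and 4.17 CPM in metafemales, against 8.92, 27.6 and 14.2 CPM in females (log2 fold change -2.59, SE 0.53, edgeR adjusted p = 0.00996), again without overlap and with female replicate 2 the highest in both genes. Ugt36E1, beside it on 2L, had 4.33, 2.76 and 3.28 CPM in metafemales, against 4.73, 5.14 and 6.21 CPM in females, with a log2 fold change of -0.63 (SE 0.14, edgeR adjusted p = 0.0132) under the threshold. Ugt50B3, the most abundant Ugt by CPM, had 61.1, 47.8 and 57.5 CPM in metafemales, against 89.3, 101.7 and 80.4 CPM in females (log2 fold change -0.701, SE 0.13, edgeR adjusted p = 0.00733), lower in every metafemale library; 4430 bases of its span overlap TpnC4 on the opposite strand. Of the Ugt genes that were not called, Ugt35E2 had the highest log2 fold change, 2.61, and the rest, among them Ugt316A1, Ugt317A1, Ugt49B1, Ugt49B2 and the 4 genes of family Ugt303, lay between -1.21 (Ugt36F1) and 0.68 (Ugt303A1).

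The second question was whether normal males and females differ at these genes. In males 2 of 64 tested members rose and none fell, shares of 3.13% and 0%, beside 17.6% and 0.328% of all 13700 genes tested. The shares over all genes include spermatocyte genes, of which all 6 listed were called higher in males (median log2 fold change 6.325). Their part in these shares was not tested. At an unadjusted p below 0.05, 7 members were higher and 2 lower, and DESeq2 called 3 higher and 0 lower. The member that only DESeq2 called was Ugt36F1 (DESeq2 adjusted p = 0.0437), which had the largest log2 fold change of the members tested. It had 0.939, 1.21 and 0.84 CPM in males, against 0, 0.127 and 0.311 CPM in females (log2 fold change 2.72, SE 1.09, edgeR adjusted p = 0.163). Ugt305A1 had 10.2, 12.6 and 9.09 CPM in males, against 3.58, 3.26 and 3.6 CPM in females (log2 fold change 1.49, SE 0.13, edgeR adjusted p = 0.000198), with every male library more than 2-fold above every female library. GstO1 had 14.96, 17.4 and 10.8 CPM in males, against 6.16, 7.29 and 5.85 CPM in females (log2 fold change 1.03, SE 0.14, edgeR adjusted p = 0.00187), and its log2 fold change was 0.93 without female replicate 3 and 0.99 without male replicate 2, under the threshold. GstS1 had 259, 264 and 248 CPM in males, against 130.3, 125 and 144 CPM in females (log2 fold change 0.85, SE 0.14, edgeR adjusted p = 0.0043), the largest difference in CPM of any member here, with tight groups far apart, but under the fold threshold. For the abundant GstD1 the values were 555, 522 and 543 CPM in males, against 509, 485 and 420.1 CPM in females (log2 fold change 0.096, SE 0.20, edgeR adjusted p = 0.834), and for GstT4 and GstT3, of which males carry 1 copy, the log2 fold changes were -0.23 and -0.14. Among the genes with the largest rises in metafemales, none was called in males. GstE7 had 1.64, 0.427 and 1.76 CPM in males, against 1.34, 0.92 and 1.32 CPM in females (log2 fold change 0.06), and GstD5 had a log2 fold change of -0.101. Ugt35B1 had 0.263, 0.0843 and 0.321 CPM in males, against 0.0488, 0.07999 and 0 CPM in females (log2 fold change 2.28, SE 1.05, edgeR adjusted p = 0.231), so every male library was above every female library without passing the test. GstD7 had 0.653, 0.107 and 1.25 CPM in males, against 0.282, 0.107 and 0.239 CPM in females (log2 fold change 1.67, SE 0.93, edgeR adjusted p = 0.331), with overlapping groups, and Ugt37C2 had a log2 fold change of 0.75 (SE 0.74, edgeR adjusted p = 0.628). Ugt307A1 was too low to be tested, at 0, 0.0394 and 0.0153 CPM in males, against 0, 0.0133 and 0 CPM in females.

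The male libraries also showed how far single libraries can depart. GstE8 had 22.2, 0 and 24.9 CPM in males, against 16.4, 14.8 and 15.9 CPM in females, and both of its transcripts are listed at 0 in male replicate 2, while its neighbours GstE7 and GstE9 were detected there. Male replicate 2 was the lowest of the males for 17 of the 23 members that rose in metafemales, and its midgut digestion sum, 5254 CPM, was also the lowest of the males, beside 8331 and 8512 CPM. In metafemales replicate 3 was the lowest library for 21 of the 23 genes and had the lowest midgut digestion sum, 11870 CPM, beside 13590 and 14580 CPM. The muscle sum was lowest in the same libraries, at 3438 CPM in male replicate 2, beside 5010 and 7685 CPM. In metafemale replicate 3 it was 9321 CPM, beside 11880 and 17860 CPM. Female replicate 3 had the lowest midgut digestion (7261 CPM) and muscle (3639 CPM) sums of the females, and was lowest for 12 of the 23 genes. How often each library was lowest over all genes called higher was not counted. The fat body sum was lowest in male replicate 2 (36290 CPM) and in metafemale replicate 2 (42020 CPM). The Malpighian tubule sum was highest in male replicate 2 (440.6 CPM). The part of RNA from any of these tissues in these values was not tested.

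Set against males, 17 of 67 tested members rose in metafemales and 6 fell, beside 9.21% higher and 21.6% lower of all 13814 genes tested. The genes tested include the spermatocyte list, with 5 of 6 called lower in metafemales. This comparison shares its metafemale libraries with the comparison against females, so it is not an independent repeat of it. Of these 23 calls, 5 (Ugt307A1, Ugt37C2, Ugt35E1, GstD5 and Ugt36F1) reached the level needed for testing in fewer than 3 libraries of the group where they were lower, and so entered the test through the group where they were high. Of the 23 genes that rose against females, 16 also rose against males, which is 16 of 17 called there. The exception was Ugt36A1, with 5.91, 2.84 and 4.59 CPM in metafemales, against 2.64, 1.98 and 2.01 CPM in males (log2 fold change 1.13, SE 0.27, edgeR adjusted p = 0.0146), whose log2 fold change against females was 0.603. Among the shared genes, GstE7 had male levels of 1.64, 0.427 and 1.76 CPM (log2 fold change 3.44, SE 0.61, edgeR adjusted p = 0.00415), Ugt35C1 1.46, 1.31 and 1.35 CPM (log2 fold change 2.78, SE 0.21, edgeR adjusted p = 0.000109), GstD5 0.0751, 0.0562 and 0.13 CPM (log2 fold change 4.04, SE 0.65, edgeR adjusted p = 0.00273) and Ugt35B1 0.263, 0.0843 and 0.321 CPM (log2 fold change 3.78, SE 0.62, edgeR adjusted p = 0.00297). GstD10, GstD4, GstD6, GstE5, Ugt37A2, Ugt37D1 and Ugt305A1 rose against females but were not called against males, and for Ugt305A1 the log2 fold change against males was -0.29.

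Several of these calls rested on single libraries. Without metafemale replicate 1 the count of higher members was 10: Ugt307A1, Ugt37C2, Ugt35E1, GstE9, GstE10 and GstD7 then had edgeR adjusted p of 0.0548 to 0.107, and Ugt36A1 a log2 fold change of 0.99. Without metafemale replicate 2 it was 12, since Ugt37C2, GstE9, GstE10 and GstD7 had adjusted p of 0.0541 to 0.108 and Ugt37A3 a log2 fold change of 0.99. GstE9 and GstE10 also had adjusted p of 0.064 to 0.116 without metafemale replicate 3 or male replicate 1, and GstD7, Ugt37C2, Ugt35E1 and Ugt49C1 had 0.0501 to 0.107 without male replicate 1. Without male replicate 2 the log2 fold change was 0.94 for GstE10 and 0.96 for Ugt36A1, and without male replicate 3 the adjusted p was 0.0583 for Ugt307A1 and 0.0537 for Ugt49C1. The log2 fold change of GstD5 was 3.46 without metafemale replicate 2 and 4.66 without male replicate 3. Male replicate 3 also held the highest male level of GstD7 (log2 fold change 3.19, against 4.25 without it) and of GstE9 (1.83, against 2.56 without it), and male replicate 2 that of Ugt307A1 (3.13, against 4.18 without it).

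Of the 6 members that fell against males, 3 had also fallen against females: Ugt36D1 (log2 fold change -2.404, SE 0.44, edgeR adjusted p = 0.00465), GstE3 (log2 fold change -1.62, SE 0.24, edgeR adjusted p = 0.00179) and Ugt301D1 (log2 fold change -1.401, SE 0.14, edgeR adjusted p = 0.00032). The others were genes of higher male level. Ugt36F1 had 0.143, 0 and 0.0474 CPM in metafemales, against 0.939, 1.21 and 0.84 CPM in males (log2 fold change -3.89, SE 0.95, edgeR adjusted p = 0.0155), and without metafemale replicate 3 the adjusted p was 0.0598. Without metafemale replicate 1 or 2 the log2 fold change of Ugt36F1 was -5.09 or -3.28. GstO1 had 4.18, 5.19 and 4.54 CPM in metafemales, against 14.96, 17.4 and 10.8 CPM in males (log2 fold change -1.43, SE 0.18, edgeR adjusted p = 0.000904). GstS1 had 124, 112 and 103 CPM in metafemales, against 259, 264 and 248 CPM in males (log2 fold change -1.04, SE 0.16, edgeR adjusted p = 0.00262), with a log2 fold change of -0.95 without metafemale replicate 3 and -0.89 without male replicate 3. GstE3 had male levels of 63.4, 51.7 and 58.8 CPM, above the females as well as the metafemales in every library. Over the 67 members tested against males, the metafemale libraries lay above all 6 control libraries in 26 genes and below all of them in 12, beside 15.8% and 15.2% of all genes tested. They include 20 of the 23 genes called higher against females and all 4 called lower.

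The genes around conjugation were examined in the same fits, as lists drawn up with earlier results of these data known. Over all genes tested against females, 9.75% rose in metafemales and 4.83% fell, and 20.6% were higher by the adjusted p alone. The lists were not split by chromosome, so any X-linked genes in them stand here beside shares over all genes. Among X-linked genes, whose dose is higher in metafemales, the median log2 fold change was 0.43 and 42.9% were higher by the adjusted p alone. The part of gene dose in the list values was not tested. Of 7 genes that supply or recycle glutathione, 1 rose in metafemales, none fell, and 6 were higher by the adjusted p alone, with a median log2 fold change of 0.73. Gclc, the catalytic subunit of glutamate-cysteine ligase, which limits glutathione synthesis, had 199, 164 and 139 CPM in metafemales, against 62.9, 50.2 and 46.9 CPM in females (log2 fold change 1.65, SE 0.18, edgeR adjusted p = 0.00146). The glutathione synthetase genes Gss1 and Gss2 had log2 fold changes of 0.79 and 0.78, under the threshold, while Gclm, the modifier subunit, had 1.85, 43.1 and 40.5 CPM in metafemales, against 27.3, 21.2 and 20.05 CPM in females (log2 fold change 0.4, SE 0.94, edgeR adjusted p = 0.761). For Gclm metafemale replicate 1, the library that stands apart, was far below the females and the other metafemale libraries were above them. Of 4 other enzymes that use glutathione, 1 rose: Mgstl, a microsomal enzyme of the Gst type, had 101.8, 87.04 and 74.8 CPM in metafemales, against 27.4, 24.2 and 25.6 CPM in females (log2 fold change 1.78, SE 0.13, edgeR adjusted p = 0.000547). Sepia (se), an omega class gene whose product makes an eye pigment precursor, had a log2 fold change of -0.62 (SE 0.49, edgeR adjusted p = 0.355). None of the 4 genes that supply UDP-sugars was called: sgl, the UDP-glucose dehydrogenase, had 0.805 (SE 0.13, edgeR adjusted p = 0.00405), and UGP, which makes UDP-glucose, had 0.63 (SE 0.18, edgeR adjusted p = 0.0312).

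The listed ABC transporters were higher by the adjusted p in all 6 genes, and 2 of the 6 rose past the fold threshold. Which of them export conjugates was not examined. Mdr50, of the P-glycoprotein type, had 16.5, 13.5 and 12.2 CPM in metafemales, against 0.977, 0.433 and 0.615 CPM in females (log2 fold change 4.36, SE 0.34, edgeR adjusted p = 0.00063). Mrp5 had 82.9, 69 and 50.6 CPM in metafemales, against 11.9, 11.4 and 7.82 CPM in females (log2 fold change 2.696, SE 0.25, edgeR adjusted p = 0.00091). The metafemale libraries exceeded the female libraries by more than 4-fold in both. Of 6 antioxidant enzymes 1 rose, Prx2, a thiol peroxidase, with 440.1, 372 and 274 CPM in metafemales, against 120.1, 113 and 114 CPM in females (log2 fold change 1.65, SE 0.17, edgeR adjusted p = 0.00111), and Prx3 and Sod2 had log2 fold changes of 0.94 and 0.82. Of 4 sulfotransferases 1 fell, St2, with 0.2001, 0.542 and 0.699 CPM in metafemales, against 1.57, 3.23 and 2.42 CPM in females (log2 fold change -2.25, SE 0.52, edgeR adjusted p = 0.0155).

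None of the 4 regulators was called. The log2 fold change of cnc was -0.27 (SE 0.11, edgeR adjusted p = 0.0828), that of its inhibitor Keap1 was -0.601 (SE 0.18, edgeR adjusted p = 0.0361), that of its partner maf-S was -0.23 (SE 0.15, edgeR adjusted p = 0.252), and that of Hr96, a nuclear receptor of the response to foreign compounds, was 0.34 (SE 0.10, edgeR adjusted p = 0.0323). These are RNA levels, and the activity of the proteins was not measured. In males against females no gene of any of these 7 lists was called.

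**Figure D5:**
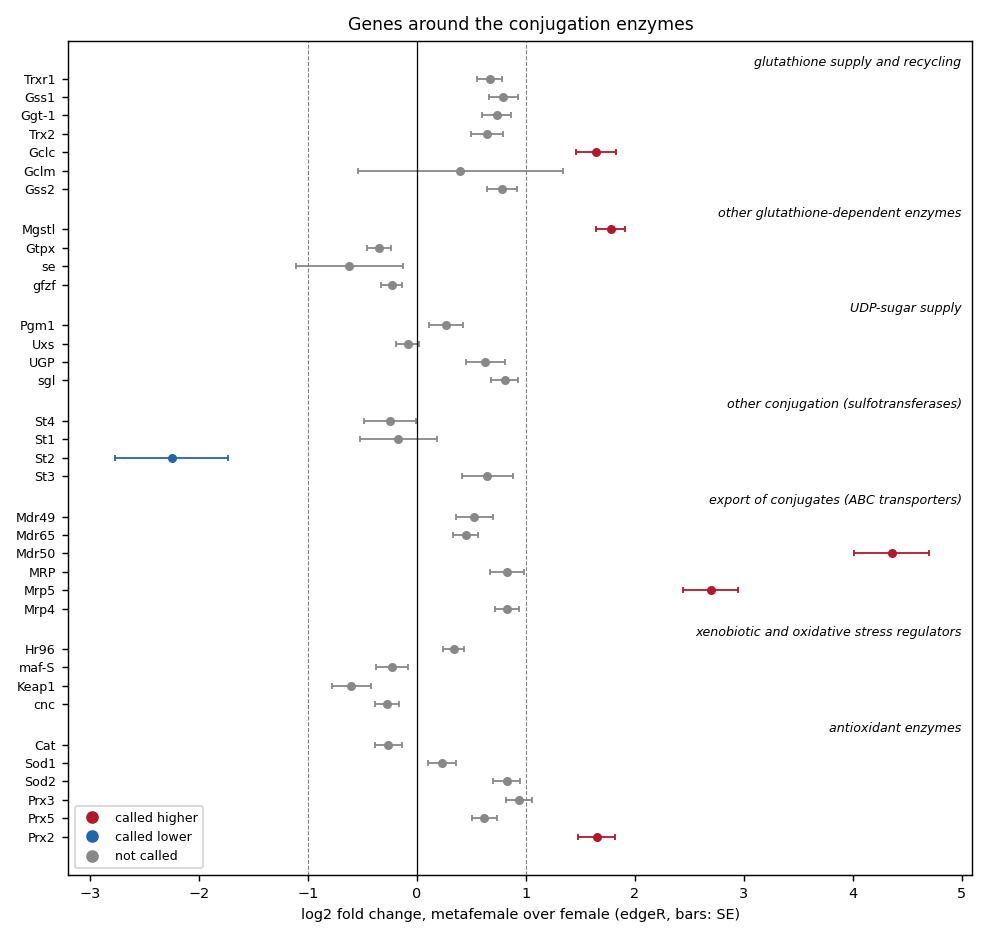
Log2 fold changes of metafemale over female (points, with bars of 1 SE from edgeR) for the genes around the conjugation enzymes. The lists cover supply of glutathione and UDP-sugars, other conjugations, ABC transporters, regulators of the response and removal of oxidants. Red is called higher, blue called lower and grey not called, with dashed lines at 1 in each direction. Mdr50 (4.36), Mrp5 (2.696), Mgstl, Prx2 and Gclc are the genes called higher, and St2 (-2.25) is the gene called lower.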

How the data were processed

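The 9 libraries were assigned to groups by sample labels and by the column names of the count table (XXX, CF and CM). The authors removed ribosomal RNA, sequenced paired reads of 150 bases, trimmed them with Trimmomatic, aligned them to BDGP6 with HISAT2 and estimated transcript abundance with StringTie, per their methods and the submitters' processing notes. The deposited values are expected counts per transcript, estimated by StringTie, given as whole numbers without normalization. The deposited table holds no comparison of the authors, and every per-sample column was used.

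Of 42937 transcripts, 34919 carry FlyBase identifiers and 34750 of them matched a gene in Ensembl release 115 (BDGP6.54), over which they were summed; 169 had no match, 8017 are assembled transcripts that entered library totals only, and 1 further entry named a gene. CPM were taken over the whole column total, and levels per kilobase used transcript lengths. Differences were tested on the 6 libraries of each comparison with the quasi-likelihood test of edgeR 4.0.16 in R 4.3.3, after TMM scaling and filterByExpr. The p-values of all genes in a fit were adjusted by Benjamini-Hochberg. A call needed an adjusted p below 0.05 and a log2 fold change over 1 in either direction. The SE is the log2 fold change divided by the square root of F. The fits were tested on simulated data. Alternatives were DESeq2 1.42.0, other scalings and filters, all 9 libraries in one fit, a replicate block and each library left out in turn. Python 3.11.15 with pandas 2.3.3, numpy 2.4.6 and scipy 1.17.1 gave levels and intervals, and matplotlib 3.10.9 the figures.

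Every member is accounted for. Values in each library are given for members called in any comparison, the 3 most abundant of each family, the X-linked members and those of known single role, and for the other lists for genes called in metafemales. Some further members were named after their values were seen, for comparison with these. The members, gene lists and marker lists were chosen with earlier results of these data known. A planned search of promoters for a motif and a comparison of protein sequences were not run.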

Additional observations from a re-analysis of the deposited data

How the results depend on the processing

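In metafemales against females, the 23 higher members numbered 19 to 24 under the other scalings, filters, tools and fits, apart from 30 with no fold threshold, and 19 to 22 with 1 library left out. The 4 lower members numbered 2 with no filter on low counts, 2 with DESeq2, 2 with all 9 libraries in one fit, 10 with no fold threshold and 2 to 3 with 1 library left out. Between males and females the count of 2 higher ranged from 1 to 3 with 1 library left out. Against males, the 17 higher members numbered 10 to 22 and the 6 lower 4 to 6 with 1 library left out. Among the members called in a comparison, no direction turned under any setting that tested them. Members not called were not checked for this. The labels do not say whether the replicate numbers pair the libraries. Correlations of same-numbered libraries were -0.044 to 0.038 between metafemales and females, -0.04 to 0.14 between males and females, and -0.164 to 0.048 between metafemales and males. Those of differently numbered libraries were -0.066 to 0.027, -0.196 to 0.108 and -0.115 to 0.174. With 3 libraries a group these values cannot decide whether the libraries are paired. With the replicate block, 21 members were higher and 3 lower against females, and 10 higher against males. The ratio of summed Gst levels, 1.09, was 1.002 on annotated totals. Scaling by the total of the table moved the median log2 fold change of all genes to 0.12 from 0.01 between males and females and to -0.31 from -0.13 between metafemales and males. A floor of 3 counts per library limits what is detected, so the changes of Ugt307A1, Ugt35E2 and GstD11 rest on very few reads.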
